A study of Mus musculus with 15 samples.

Results

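The 8 gene families followed here are linked to the 2-cell-like state of mouse embryonic stem cells, and their RNA was measured during knockdown of Smarcb1, which encodes a subunit of the BAF chromatin remodeller. They comprised every listed gene whose symbol starts with Zscan4, Usp17l, Tcstv, Tdpoz, Duxf or Pramef, together with Zfp352 and Sp110. This gave 32 of 55228 listed genes, of which 9 were Zscan4, 6 Usp17l, 2 Tcstv, 5 Tdpoz, 1 Duxf and 7 Pramef copies, and 29 had at least 1 read. RNA-seq had been performed in 15 libraries of the 81K1 line, a clone derived from OG2 stem cells with an shRNA against Smarcb1 in the Rosa26 locus that doxycycline switches on. All groups carried this cassette and were grown in serum with LIF on gelatine. Untreated cells (48 h ctrl and 240 h ctrl) were compared with cells given 1 µg/ml doxycycline every day for the stated time (48 h kd, 72 h kd and 240 h kd), with 3 libraries per group. The 72 h kd libraries were set against 48 h ctrl, since untreated cells of 72 h were not analysed here, and both comparisons therefore share these controls. Doxycycline-treated cells of a line lacking the shRNA were not analysed here, so effects of doxycycline and of the knockdown cannot be told apart. The labels do not say whether the libraries of a group came from separate cultures, so p-values measure the spread between libraries, which may be technical.

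The 2-cell-like state is a rare, transient condition of cultured stem cells in which genes of the cleavage-stage embryo are transcribed. Its best known driver is Dux, a homeobox factor encoded in a repeated array. Among the genes transcribed in it are Zscan4, which encodes zinc finger proteins with a SCAN domain and a role in telomere maintenance, Usp17l, which encodes deubiquitinating enzymes, Tcstv and Zfp352. Tdpoz genes encode proteins with TRAF and POZ domains, Pramef genes encode leucine-rich repeat proteins of the PRAME family, and Sp110 encodes a nuclear body protein induced by interferon. Many of these genes lie in tandem arrays of near-identical copies.

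All 9 Zscan4 copies lie on chromosome 7 between positions 10794242 and 11614112 of GRCm38, and the 6 Usp17l copies on the same chromosome between 103249737 and 104862667. Tcstv1 lies at chr13:119893388-119894785 and Tcstv3 at chr13:120316878-120318178, the Tdpoz copies on chromosome 3 between 93651542 and 93961314, and the Pramef copies on chromosome 4 between 143412426 and 144408464. Zfp352 lies at chr4:90218820-90225702, Sp110 at chr1:85576899-85598817 and Duxf3 at chr10:58229979-58232675. The GENCODE annotation lists Zscan4a as an unprocessed pseudogene and Zscan4-ps1, Zscan4-ps2 and Zscan4-ps3 as protein coding. The RefSeq promoter table (GRCm38.p6) held a window for 14 of the 32 genes. The 250 bases before the annotated start of the 4 Zscan4 and 4 Usp17l copies in it are shown because these arrays changed most in the comparisons described below. They are written 5′ to 3′ on the strand of the gene, and capitals mark the motif TATAAA, the core of a TATA box, and the motif TGATTNAAT, a core form of the sequence that Dux recognises, on either strand.
Zscan4b chr7:10905051-10905300 (minus strand): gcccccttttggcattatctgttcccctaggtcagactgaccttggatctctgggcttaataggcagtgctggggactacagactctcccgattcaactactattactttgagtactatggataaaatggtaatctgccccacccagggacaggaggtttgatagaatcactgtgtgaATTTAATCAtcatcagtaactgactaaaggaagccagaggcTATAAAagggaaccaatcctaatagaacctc
Zscan4c chr7:11005495-11005744 (plus strand): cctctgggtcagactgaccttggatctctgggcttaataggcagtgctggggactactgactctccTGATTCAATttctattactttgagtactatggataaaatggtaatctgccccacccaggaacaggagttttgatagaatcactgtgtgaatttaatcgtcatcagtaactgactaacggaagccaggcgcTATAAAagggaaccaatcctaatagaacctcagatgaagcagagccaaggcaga
Zscan4d chr7:11166149-11166398 (minus strand): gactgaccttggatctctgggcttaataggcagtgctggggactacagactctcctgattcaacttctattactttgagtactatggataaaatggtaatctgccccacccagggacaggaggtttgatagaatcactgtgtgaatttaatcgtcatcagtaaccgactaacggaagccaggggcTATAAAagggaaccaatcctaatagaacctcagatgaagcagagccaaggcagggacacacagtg
Zscan4f chr7:11397665-11397914 (plus strand): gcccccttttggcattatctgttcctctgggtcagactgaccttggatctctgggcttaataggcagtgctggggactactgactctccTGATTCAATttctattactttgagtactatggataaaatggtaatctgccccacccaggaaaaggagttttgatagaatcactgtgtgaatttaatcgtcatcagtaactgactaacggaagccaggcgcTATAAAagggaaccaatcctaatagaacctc
Usp17la chr7:104856766-104857015 (plus strand): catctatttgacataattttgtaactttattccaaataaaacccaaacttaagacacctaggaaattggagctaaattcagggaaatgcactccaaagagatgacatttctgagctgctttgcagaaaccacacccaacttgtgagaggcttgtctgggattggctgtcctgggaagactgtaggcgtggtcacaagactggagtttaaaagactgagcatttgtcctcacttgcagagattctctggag
Usp17lb chr7:104842584-104842833 (minus strand): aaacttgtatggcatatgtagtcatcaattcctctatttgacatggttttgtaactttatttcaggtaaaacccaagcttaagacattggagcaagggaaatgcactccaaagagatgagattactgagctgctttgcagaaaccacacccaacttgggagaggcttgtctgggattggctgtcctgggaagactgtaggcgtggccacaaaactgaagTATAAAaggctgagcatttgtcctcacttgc
Usp17lc chr7:103416446-103416695 (plus strand): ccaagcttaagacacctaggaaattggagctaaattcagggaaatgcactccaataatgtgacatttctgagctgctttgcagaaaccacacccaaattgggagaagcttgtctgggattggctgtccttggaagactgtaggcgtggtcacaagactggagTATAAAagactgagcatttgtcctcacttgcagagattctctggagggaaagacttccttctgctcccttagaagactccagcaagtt
Usp17ld chr7:103252506-103252755 (minus strand): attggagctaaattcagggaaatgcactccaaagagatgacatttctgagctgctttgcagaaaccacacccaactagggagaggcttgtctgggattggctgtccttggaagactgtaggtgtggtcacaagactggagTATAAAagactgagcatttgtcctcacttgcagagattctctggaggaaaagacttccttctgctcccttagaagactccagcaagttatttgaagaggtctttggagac

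Each of the 4 Zscan4 windows held TATAAA, at 31 to 65 bases before the annotated start. Of the 4 Usp17l windows, 3 held it, at 31 to 110 bases before the start, and Usp17la did not. Of all 32851 promoter windows cut to the same length, 12.4% held this motif. TGATTNAAT lay in 3 of the 4 Zscan4 windows, in none of the 4 Usp17l windows, and in 0.658% of all windows. The Zscan4c and Zscan4f windows carried it on the strand of the gene and Zscan4b on the other strand. Aligned end to end in pairs, the windows were 70.0% to 94.8% identical within Zscan4, 46.4% to 78.8% within Usp17l, and 41.6% to 48.4% between both families. The annotated starts differ between copies, so alike stretches can lie at different offsets. Such shifts lower the values within a family, which therefore understate how alike these promoters are. A match gives the letters only, not a bound site. The Duxf3 window held TGATTNAAT, and the windows of Zfp352, Sp110 and the Tdpoz copies held neither motif.

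Transcripts were aligned with the shorter placed inside the longer, so their values cannot be set against those of the windows. Pairwise identity of the longest transcripts was 94.4% to 99.3% among Zscan4 copies, 78.1% to 97.8% among Usp17l copies and 77.6% to 88.5% among Tdpoz copies. For a read length of 75 bases, the share of a copy's transcript windows found in no other listed transcript was 60.5% for Zscan4d, 49.1% for Zscan4a, 37.4% for Zscan4-ps3, 21.4% for Zscan4c and 15.5% for Zscan4e. It was 84.7% for Usp17le and 92.3% for Usp17la. All windows of Tdpoz5 occurred in genes outside the families. How reads that align equally well to several copies were handled is not given in the sources used here, so values of single copies are uncertain and reads were summed per family.

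Reads were recovered from the deposited FPKM values, which gave whole reads for 100% of values with a tolerance of 0.001 and totals of 11074998 to 14515300 reads per library. Smarcb1 had 953 to 1162 reads in the ctrl libraries and 144 to 239 in the kd libraries, with log2 fold changes of -2.50, -2.67 and -2.37 at 48, 72 and 240 h (adjusted p at most 1.03e-07, limma). The library 48 h kd replicate 2 stood apart from its group, with 2.53% of reads from mitochondrial genes, and 240 h ctrl replicate 3 differed more from the other libraries of its group than these did from each other, with 0.507% against 1.26% to 1.45%. All 9 embryonic stem cell markers examined, among them Pou5f1, Sox2 and Nanog, were read in every library.

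Zscan4 RNA was close to the detection limit in untreated cells and well above it after 240 h of knockdown. At 48 h the ctrl libraries held 2, 3 and 4 reads and the kd libraries 6, 9 and 5. The kd libraries of 72 h held 11, 8 and 17. At 240 h the ctrl libraries held 7, 1 and 4, whereas 282, 322 and 277 were found after knockdown. The groups at 240 h were far apart, and the 72 h kd libraries were all above both ctrl groups. Scaled to reads per 1000000 library reads (RPM), the level at 240 h was 0.319 ± 0.241 for ctrl against 21.3 ± 0.924 for kd (SD, n = 3). The ratio of pooled RPM was 66.7, with an exact 95% counting interval of 38.0 to 130. It rested on few ctrl reads and was 107 without 240 h ctrl replicate 1 and 48.9 without replicate 2. Such intervals cover counting error only, since the reads carry no molecular identifiers. On the scale of log2(RPM + 0.1) the difference was 5.86 (SE 0.32, adjusted p = 1.605e-10, limma), and 5.95 without 240 h ctrl replicate 3. In bulk libraries, more cells in such a state and more RNA per cell cannot be told apart.

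Usp17l followed with lower numbers. At 48 h the ctrl libraries held 2, 2 and 1 reads and the kd libraries 1, 7 and 2. The kd libraries of 72 h held 13, 9 and 6. At 240 h the ctrl libraries held 4, 6 and 2 and the kd libraries 90, 125 and 126. The 240 h kd libraries lay above all others, and the highest 48 h kd value was that of the library that stood apart. The level at 240 h was 0.322 ± 0.165 RPM for ctrl against 8.23 ± 1.26 for kd (SD, n = 3), with a ratio of 25.8 (counting interval 14.6 to 50.5) and a log2 fold change of 4.37 (SE 0.29, adjusted p = 1.486e-09, limma), or 4.05 without 240 h ctrl replicate 3.

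A feature was called if its adjusted p was below 0.05 and its log2 fold change beyond 0.58 in either direction, and was tested if the libraries compared averaged 10 or more reads. At 240 h, 17.7% of 16636 features were called, and 9.77% were called higher. Zscan4 and Usp17l were called higher and Pramef was not called. Zscan4 and Usp17l passed the minimum through the kd libraries, where they were high, so the fit was repeated without a minimum. There 6.65% of 32883 features were called higher, and 5 families were among them: Zscan4, Usp17l, Zfp352, Tcstv and Tdpoz.

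**Figure D1:**
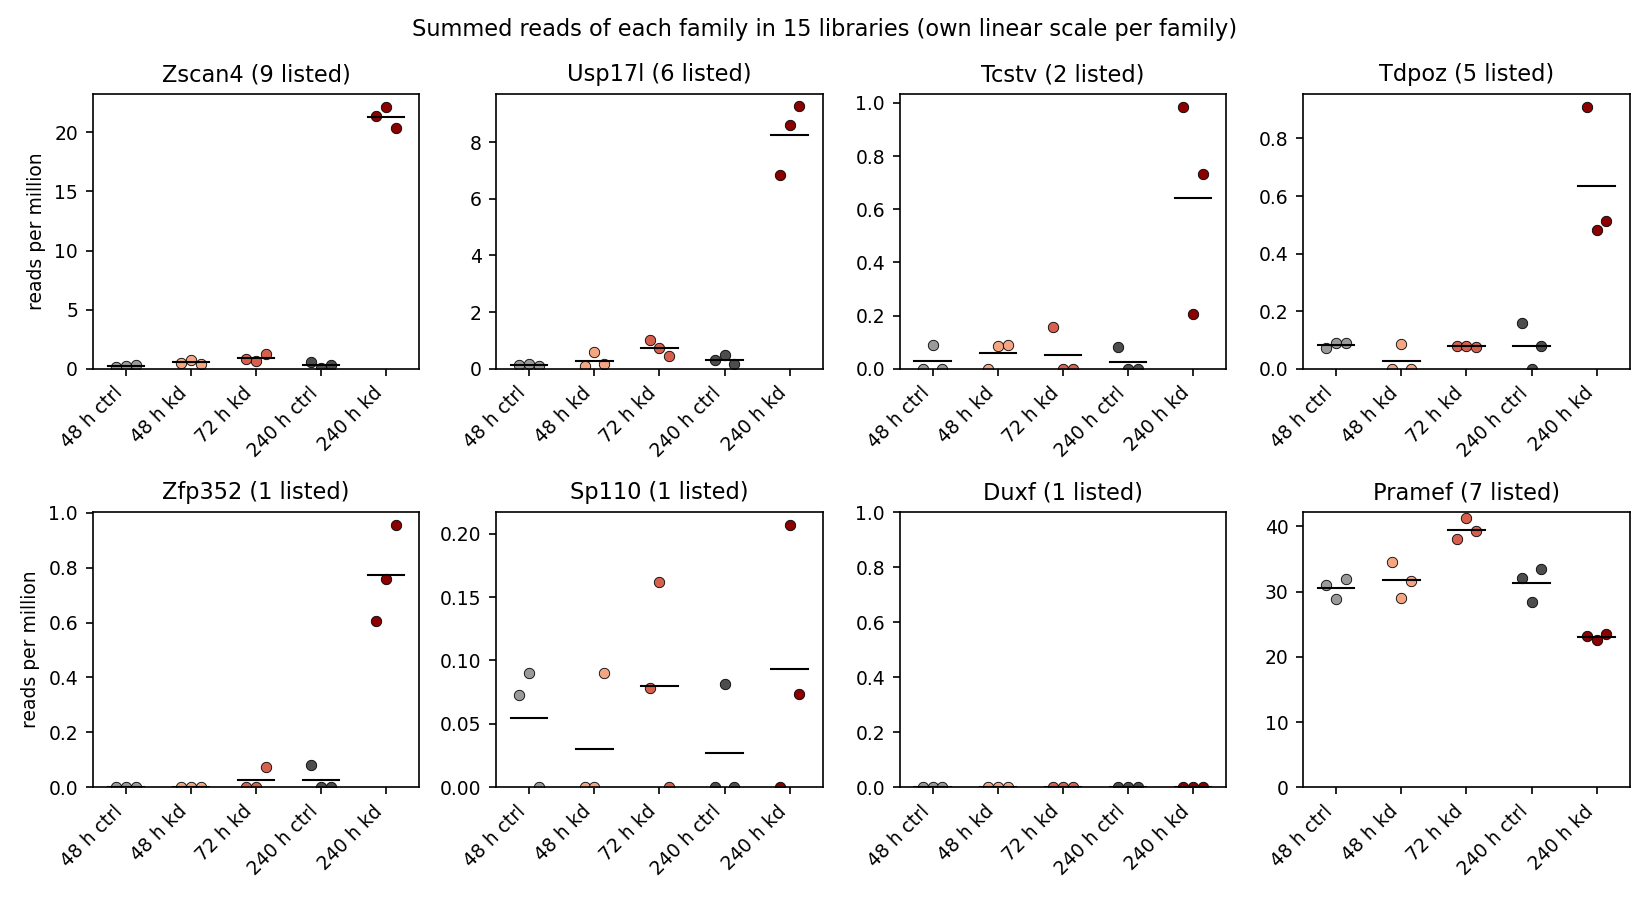
RPM (vertical axis, linear, its own range in each panel) of the 8 families in the 15 libraries; points are libraries and horizontal bars group means (n = 3). The 240 h kd libraries are the highest for Zscan4 (20.3 to 22.2), Usp17l (6.83 to 9.25), Tcstv, Tdpoz and Zfp352, and the lowest for Pramef (22.7 to 23.5).

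The smaller families had few reads. Zfp352, a zinc finger gene, had no read at 48 h, and 1 library each of 72 h kd and 240 h ctrl held 1. The kd libraries of 240 h held 8, 11 and 13. Its ratio at 240 h was 29.1 with a counting interval of 4.86 to 1180, and without a minimum its log2 fold change was 2.82 (adjusted p = 6.903e-05, limma). Tcstv1 and Tcstv3 together had 13, 3 and 10 reads after 240 h of knockdown and 0 to 2 in each of the 12 other libraries (log2 fold change 2.42, adjusted p = 0.00123, limma without a minimum). The 5 Tdpoz copies together had 12, 7 and 7 reads there and 0 to 2 elsewhere (2.09, adjusted p = 0.002329, limma without a minimum). Each of these families was higher in 3 of 3 libraries of 240 h kd than in any other library. Sp110 had 0, 3 and 1 reads there against at most 2 elsewhere, and its log2 fold change of 0.52 did not pass the test (adjusted p = 0.485, limma without a minimum). Its span overlaps another listed gene, G530012D18Rik, with which it shares reads. Duxf3, the Dux copy listed, had 0 reads in all 15 libraries. A count of 0 allows up to 3 reads, or 0.207 to 0.271 RPM per library, and 34.1% of its transcript windows occur in other genes, so its RNA was not detectable at this depth and in this annotation.

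Levels of families were compared per kilobase of exonic length, summed over the copies. In 240 h kd Pramef had 1.60 ± 0.0293 RPM per kilobase, Zscan4 1.12 ± 0.0488, Usp17l 0.709 ± 0.108, Zfp352 0.340 ± 0.0766, Tcstv 0.295 ± 0.183, Tdpoz 0.0944 ± 0.0354 and Sp110 0.0138 ± 0.0155 (SD, n = 3). Neighbours in this order had separate ranges, except Zfp352 with Tcstv and Tcstv with Tdpoz. The order depends on the length used. By FPKM, which refers to the whole gene with introns, Tcstv1 (0.211) and Tcstv3 (0.267) averaged above Zfp352 (0.112) in 240 h kd. The leading copies Pramef12 (1.19) and Zscan4d (1.16) were close on that scale. In 240 h ctrl Pramef had 2.17 ± 0.183, and every other family averaged 0.0277 or less.

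Reads were assigned to all 9 Zscan4 copies in 240 h kd. How many copies were active cannot be told, since many read-length windows are common to several of them. In 240 h kd Zscan4d had 82, 80 and 67 reads, Zscan4a 49, 65 and 49, Zscan4c 28, 45 and 35, Zscan4-ps3 34, 32 and 32, and Zscan4e 28, 27 and 27. In 240 h ctrl each of the 9 copies had 0 to 2 reads per library, and all 9 were higher in every 240 h kd library than in any 240 h ctrl library. Zscan4d, the leading copy, took 26.0% of the Zscan4 reads in 240 h kd (24.2% to 29.1% in single libraries), Zscan4a 18.5%, Zscan4c 12.3%, Zscan4-ps3 11.1% and Zscan4e 9.31%. The other 4 copies took 3.29% to 7.38% each. The fits of single copies at 240 h called 6 Zscan4 copies, with log2 fold changes from 3.78 (Zscan4-ps2) to 4.97 (Zscan4d), all of which passed the read minimum through the kd libraries. Without a minimum all 9 copies were called higher, with log2 fold changes from 2.63 (Zscan4b) to 4.97. Ranked by log2 fold change among 16633 tested genes, Zscan4d was number 3 and Zscan4a number 4.

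Among the Usp17l copies, reads were assigned less evenly. Usp17le took 50.1% of the family's reads in 240 h kd, with 43, 66 and 62 reads. Its untreated libraries of that time held 4, 1 and 1. Usp17la had 20, 23 and 24 reads (19.6%), Usp17lc 12, 17 and 20, Usp17lb 10, 10 and 15, and Usp17ld 5, 9 and 5. Each of these 5 copies was higher in every 240 h kd library than in any 240 h ctrl library, and the pseudogene Usp17le-ps had 0 reads throughout. Usp17le and Usp17la were called, with log2 fold changes of 4.13 and 3.54 (adjusted p at most 2.156e-06, limma). Both passed the read minimum through the kd libraries. Without a minimum all 5 copies with reads were called higher, with log2 fold changes from 2.16 (Usp17ld) to 4.13. Usp17lc overlaps the listed gene Gm25774.

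**Figure D2:**
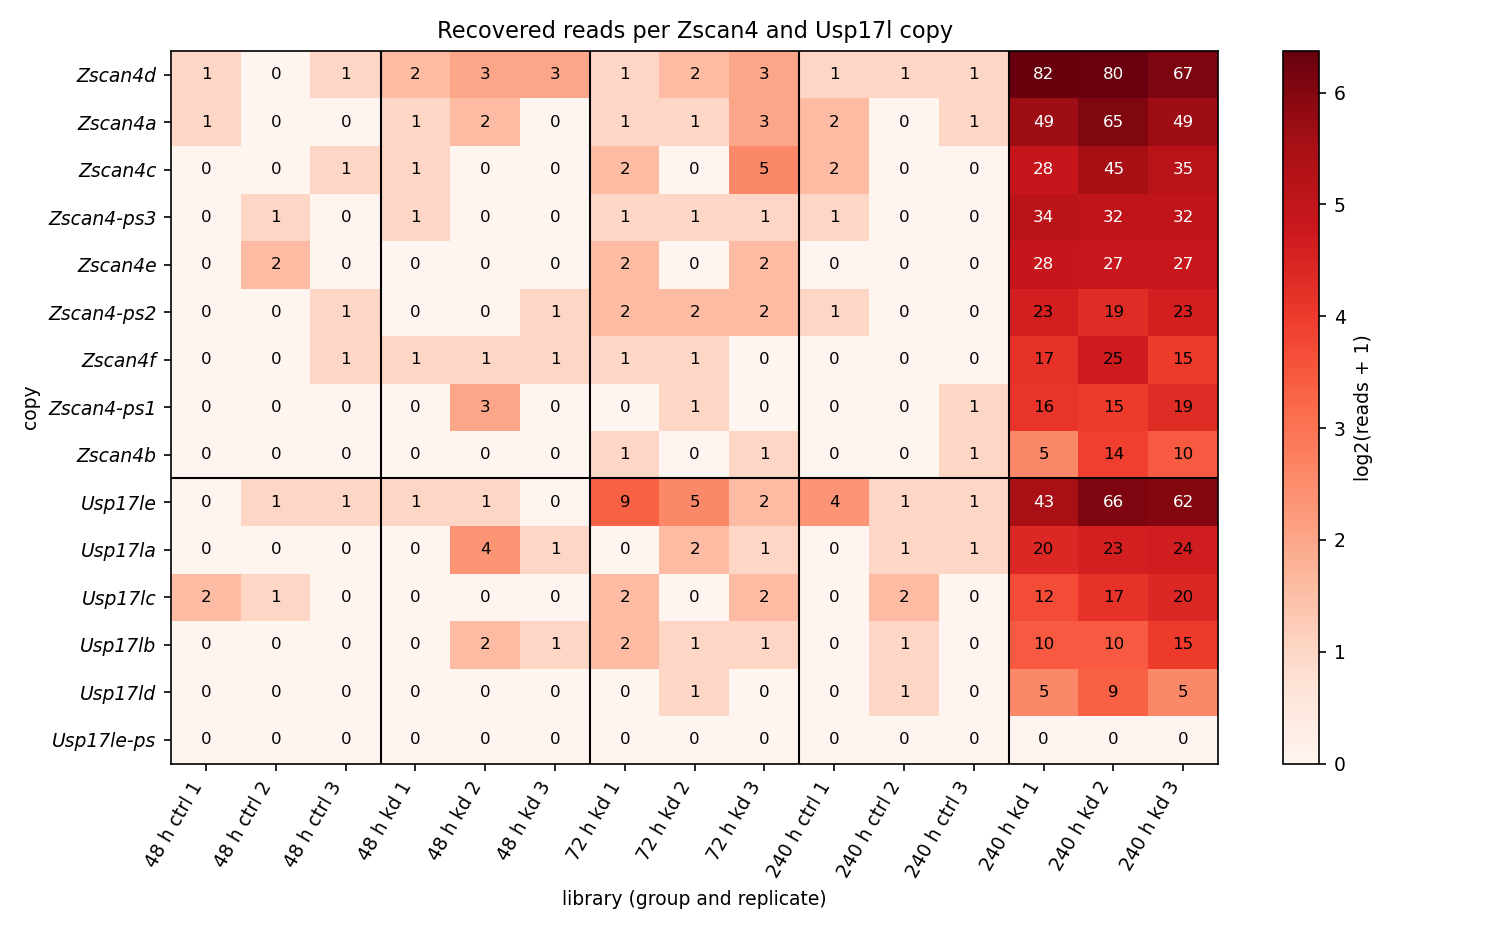
Recovered reads of each Zscan4 copy (upper block) and Usp17l copy (lower block) in each library; colour is log2(reads + 1) and the number in each cell is the read count. Copies outside 240 h kd have at most 9 reads, and Zscan4d reaches 67 to 82 and Usp17le 43 to 66 in 240 h kd.

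Over all members with at least 1 read at 240 h, 21 of 29 had every kd library above every ctrl library, against 17.7% of all 32876 genes with a read. These were all 9 Zscan4 copies, 5 Usp17l copies, both Tcstv copies, 3 Tdpoz copies, Zfp352 and 1 of 7 Pramef genes. Copies of an array share sequence and are not independent members, so this count cannot be weighed like one of separate genes. Without 240 h ctrl replicate 3 the count was also 21 of 29, against 21.3%. At 72 h this held for 5 of 25 members against 20.1% of all genes, and at 48 h for 1 of 21 against 12.7% (1 of 20 against 17.6% without 48 h kd replicate 2). Between untreated groups, 240 h ctrl above 48 h ctrl, it held for 0 of 25 against 9.19%. Shares at 72 h and 48 h were near or below the background, but most members had few reads then, and ties at such counts hinder full separation. Summed over copies, Zscan4 had 0.146 to 0.353 RPM in 48 h ctrl. It had 0.451 to 0.767 in 48 h kd and 0.648 to 1.28 in 72 h kd, without overlap. Usp17l overlapped 48 h ctrl at 48 h but not at 72 h. Of the other families, only Pramef at 72 h lay apart from 48 h ctrl.

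The earlier times were tested with few reads. At 48 h, 9.22% of 16109 features were called, Pramef was the only family with enough reads to be tested, and it was not called (log2 fold change 0.05, adjusted p = 0.684, limma). The pooled ratio for Zscan4 was 2.34 (counting interval 1.02 to 5.83) and for Usp17l 2.11 (0.656 to 7.85), and without a minimum neither was called. The Usp17l ratio rested on 48 h kd replicate 2, without which it was 0.959 (0.149 to 4.93). The Zscan4 ratio was then 1.95 (0.736 to 5.34), so that its interval also included 1. At 72 h, 22.3% of 16147 features were called and again Pramef alone was tested. Without a minimum, where 7.41% of features were called higher, Zscan4 (log2 fold change 1.53, SE 0.44, adjusted p = 0.0055) and Usp17l (1.77, SE 0.46, adjusted p = 0.0023) were called in limma. The pooled ratios at 72 h were 3.76 (1.78 to 8.88) and 5.26 (2.01 to 17.5). The Usp17l RPM at 72 h, 0.452 to 1.02, overlapped those of 240 h ctrl, 0.156 to 0.487, and the Zscan4 values, 0.648 to 1.28 against 0.0812 to 0.563, did not. Between 72 h kd and 48 h kd, 12.9% of features were called, and Pramef, the only family with enough reads to be tested, was not (0.32, adjusted p = 0.00477, limma). With 7 of its 10 reads of 48 h kd in replicate 2, Usp17l had a ratio of 2.5 (1.18 to 5.77). Its log2 fold change of 1.27 was not called without a minimum (adjusted p = 0.09395, limma, beside 7.38% of features called), and was called in a single fit of 15 libraries (adjusted p = 0.02034, limma, beside 13.4%).

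**Figure D3:**
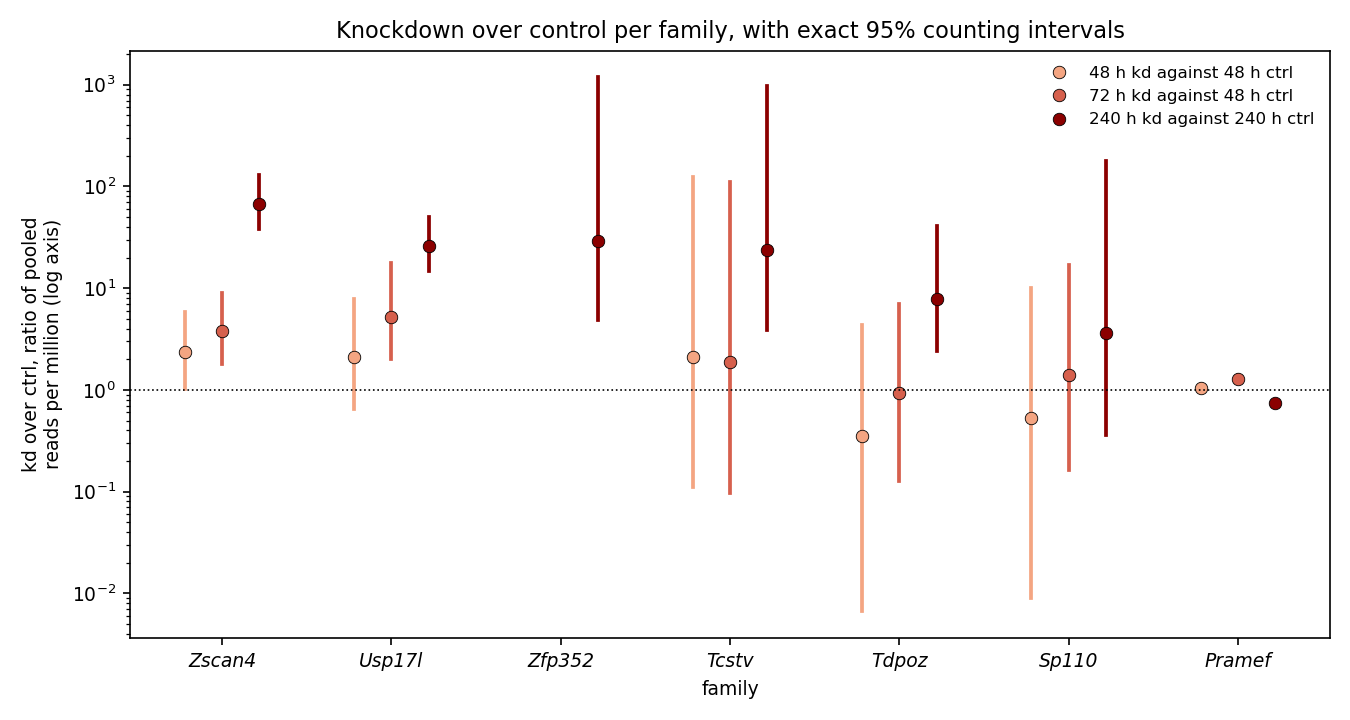
Ratio of pooled RPM, kd over ctrl, per family (logarithmic vertical axis) at 48, 72 and 240 h; vertical lines are exact 95% counting intervals, the dotted line marks a ratio of 1, and Duxf and ratios against a group with no reads are left out. The 240 h intervals of Zscan4, Usp17l, Zfp352, Tcstv and Tdpoz lie above 1, that of Sp110 (0.360 to 179) includes it and that of Pramef (0.675 to 0.803) lies below it.

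Between 240 h kd and 72 h kd, a comparison that shares the 240 h kd libraries with the one above, 25.1% of 16565 features were called, and 3 families were: Zscan4 with a log2 fold change of 4.42 (SE 0.18), Usp17l with 3.37 (SE 0.23) and Pramef with -0.77 (SE 0.06), with adjusted p at most 1.863e-11 (limma). With FPKM summed per family, Pramef fell short of the fold threshold (-0.55). Usp17l, with 28 reads over the 3 libraries of 72 h kd, passed the read minimum through 240 h kd, and Zscan4 had 36 reads there. Without a minimum, where 16.9% of features were called, the fold changes were 4.42 (adjusted p = 2.853e-17) for Zscan4 and 3.37 (adjusted p = 4.712e-12) for Usp17l in limma, and every family with reads except Sp110 was called. Whether the effect of knockdown changed from 48 h to 240 h was tested with an interaction term over 12 libraries, where 10.5% of 16406 features were called. It was 4.92 (SE 0.54, adjusted p = 3.471e-06) for Zscan4 and 3.88 (SE 0.62, adjusted p = 0.000195) for Usp17l in limma, and both were called, having passed the read minimum through the 240 h kd libraries. Without a minimum, where 5.05% of features were called, all 9 Zscan4 copies and all 5 Usp17l copies with reads were called. For Pramef it was -0.49 (adjusted p = 0.00402), under the fold threshold. In untreated cells, 1.36% of features differed between 240 h and 48 h, and Pramef, the only family tested, was not called (0.03, adjusted p = 0.821, limma). Without a minimum, where 0.605% were called, none of the 7 families with reads was, and their smallest unadjusted p was 0.1225 (limma).

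Pramef moved apart from the other families and was made up almost wholly of 1 gene. Its summed level was 31.4 ± 2.64 RPM in untreated cells and 23.1 ± 0.424 RPM with knockdown at 240 h (SD, n = 3). This difference of -0.43 on the log2 scale (SE 0.08, adjusted p = 0.000163, limma) was short of the fold threshold. Over 18 alternative settings it ranged from -0.50 to -0.22, with adjusted p up to 0.065 (limma). Pramef12, a PRAME family gene known from the male germ line, had 5418 reads over all libraries and Pramef8 had 345. At 48 h its level was 27.4 to 29.6 RPM for ctrl and 27.7 to 32.7 for kd, and at 72 h 35.9 to 38.9 for kd. At 240 h it was 26.1 to 31.3 RPM for ctrl and 19.4 to 20.9 for kd. The 72 h kd libraries were above and the 240 h kd libraries below all others. Its log2 fold change of 0.36 at 72 h (SE 0.06, adjusted p = 2.619e-05, limma) was short of the fold threshold. So was that of -0.55 at 240 h (SE 0.08, adjusted p = 3.339e-05, limma). Between 240 h kd and 72 h kd it was -0.89 and was called. Pramef12os lies inside Pramef12 on the other strand and its 0 to 5 reads per library count for both genes. Pramef8 at 240 h had 1.86 to 2.88 RPM after knockdown, which overlapped the 1.37 to 1.95 RPM of ctrl. Pramef25, by contrast, had 6, 12 and 5 reads after 240 h of knockdown, 1, 0 and 3 after 72 h, and none in the other groups. Pramef6, Pramef17 and Pramef20 had 0 to 4 reads per library. Reads of these 3 genes and Pramef25 together were 8, 19 and 6 in 240 h kd, with at most 3 elsewhere.

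**Figure D4:**
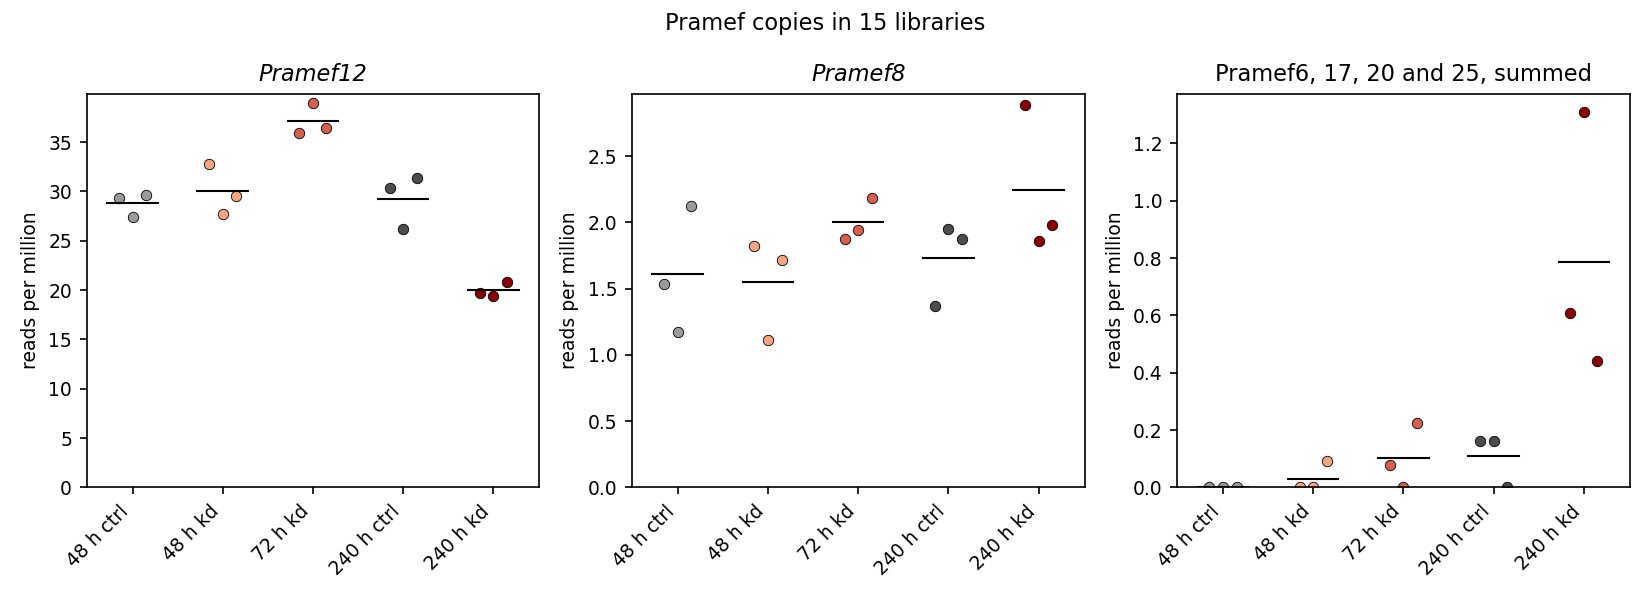
RPM (linear, own range per panel) of Pramef12, Pramef8 and the sum of Pramef6, Pramef17, Pramef20 and Pramef25 in the 15 libraries; points are libraries and bars group means (n = 3). Pramef12 is lowest in 240 h kd (19.4 to 20.9), while the summed smaller copies are highest there (6 to 19 reads against at most 3).

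The families were compared with each other by the log2 ratio of their RPM in each library. Only Zscan4, Usp17l and Pramef had enough reads, giving 3 pairs. Zscan4 and Usp17l had them through the 240 h kd libraries, so a p over these 3 pairs does not stand as support for a difference. For the test, kd and ctrl labels were permuted within 48 h and within 240 h, where 400 arrangements allow no p below 0.01. The Zscan4 to Pramef ratio was higher in kd by 0.90 at 48 h and 6.30 at 240 h (exact permutation test, two-sided, p = 0.01, adjusted over 3 pairs 0.03). Over all 21 pairs of the 7 families with a read no pair passed, 8 had an unadjusted p under 0.05, and the adjusted p of this one was 0.0525 (exact permutation tests). The Zscan4 to Usp17l ratio differed between kd and ctrl by 0.45 and 1.49 (p = 0.07, adjusted 0.07, exact permutation test) and Usp17l to Pramef by 0.45 and 4.81 (p = 0.07, adjusted 0.07, exact permutation test). The Zscan4 to Usp17l difference at 48 h was -0.17 without overlapping copies, and at 240 h it was 0.70 without 240 h ctrl replicate 2. The Usp17l to Pramef difference at 48 h was -0.15 without 48 h kd replicate 2. With 48 h ctrl replicate 1 left out the adjusted p of the Zscan4 to Pramef ratio over 3 pairs was 0.06 (exact permutation test). As a description over 15 libraries, in which a single group sets most of the range, Pearson's r with Zscan4 was 0.95 for Zfp352, 0.93 for Usp17l, 0.90 for Tdpoz, 0.85 for Tcstv, 0.15 for Sp110 and -0.64 for Pramef.

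Other genes known from the 2-cell-like state were read from a list of 33, of which 31 were in the tables. Their summed level at 48 h was 32.1 to 34.1 RPM for ctrl and 32.0 to 36.8 for kd, and at 72 h 46.6 to 50.5 for kd. At 240 h it was 40.8 to 42.4 RPM for ctrl against 96.4 to 102 for kd, well apart. At 240 h, 10 were tested, and 7 were called higher and none lower beside 9.77% of all features called higher. Of the 7, 6 passed the read minimum through the kd libraries alone. Without a minimum, 17 of 24 were called higher and none lower beside 6.65% of all features, with a median log2 fold change of 1.89 beside 0.03. Calcoco2, an autophagy receptor, did not need this and rose from 207, 225 and 250 reads to 608, 707 and 697 (log2 fold change 1.42, adjusted p = 9.151e-11, limma). Gm21761 had 2, 1 and 0 reads untreated against 41, 60 and 55 after knockdown (4.51). Gm5662 had 0, 1 and 0 against 34, 33 and 22 (4.19), and Gm8300 had 1, 2 and 2 against 36, 52 and 41 (3.80). Gm5039, Gm8994 and Gm13078 had 0 to 3 reads in the ctrl and 20 to 49 in the kd libraries at this time. At 48 h, where 4.32% of features were called higher, 1 of 3 tested genes was called, and at 72 h, where 12.3% were, 1 of 3. Both calls were Ddit4l, a regulator of mTOR signalling, with log2 fold changes of 0.64 and 1.17. Without a minimum, 4 of 19 were called higher at 72 h and none lower, beside 7.41% of all features called higher, with a median log2 fold change of 0.27 beside -0.02. At 48 h it was 1 of 17, beside 2.31% of all features.

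Among factors known to promote the state, Dppa2, which with Dppa4 acts upstream of Dux, had 61.0 to 64.5 RPM in 240 h ctrl against 105 to 109 after 240 h of knockdown, without overlap (log2 fold change 0.77, adjusted p = 1.097e-09, limma). It was the only one called of the 4 examined (Dppa2, Dppa4, Nelfa and Trp53), beside 17.7% of all features, and none was called at 48 h or 72 h, beside 9.22% and 22.3%. Dppa4 was short of the fold threshold in each, with log2 fold changes of 0.56 at 48 h (adjusted p = 0.0002611, limma), 0.44 at 72 h (adjusted p = 1.004e-08, limma) and 0.49 at 240 h (adjusted p = 8.226e-08, limma). Of 19 factors known to repress the state or the Dux array, including Trim28, Setdb1, Smchd1, Kdm1a, the CAF-1 subunits Chaf1a and Chaf1b, and members of the PRC1.6 complex such as Pcgf6 and Mga, none was called in any of the 3 comparisons of kd with ctrl, in which 9.22%, 22.3% and 17.7% of all features were. At 48, 72 and 240 h, 10, 13 and 13 of them had an unadjusted p under 0.05 in limma, beside 37.9%, 65.3% and 51.8% of all features. The largest absolute log2 fold changes were 0.29, 0.41 and 0.36. In other comparisons, Chaf1b was called lower in 240 h kd than in 72 h kd (-0.75, adjusted p = 1.833e-14, limma), and the effect on Mga was called lower at 240 h than at 48 h (-0.60, adjusted p = 0.000304, limma).

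**Figure D5:**
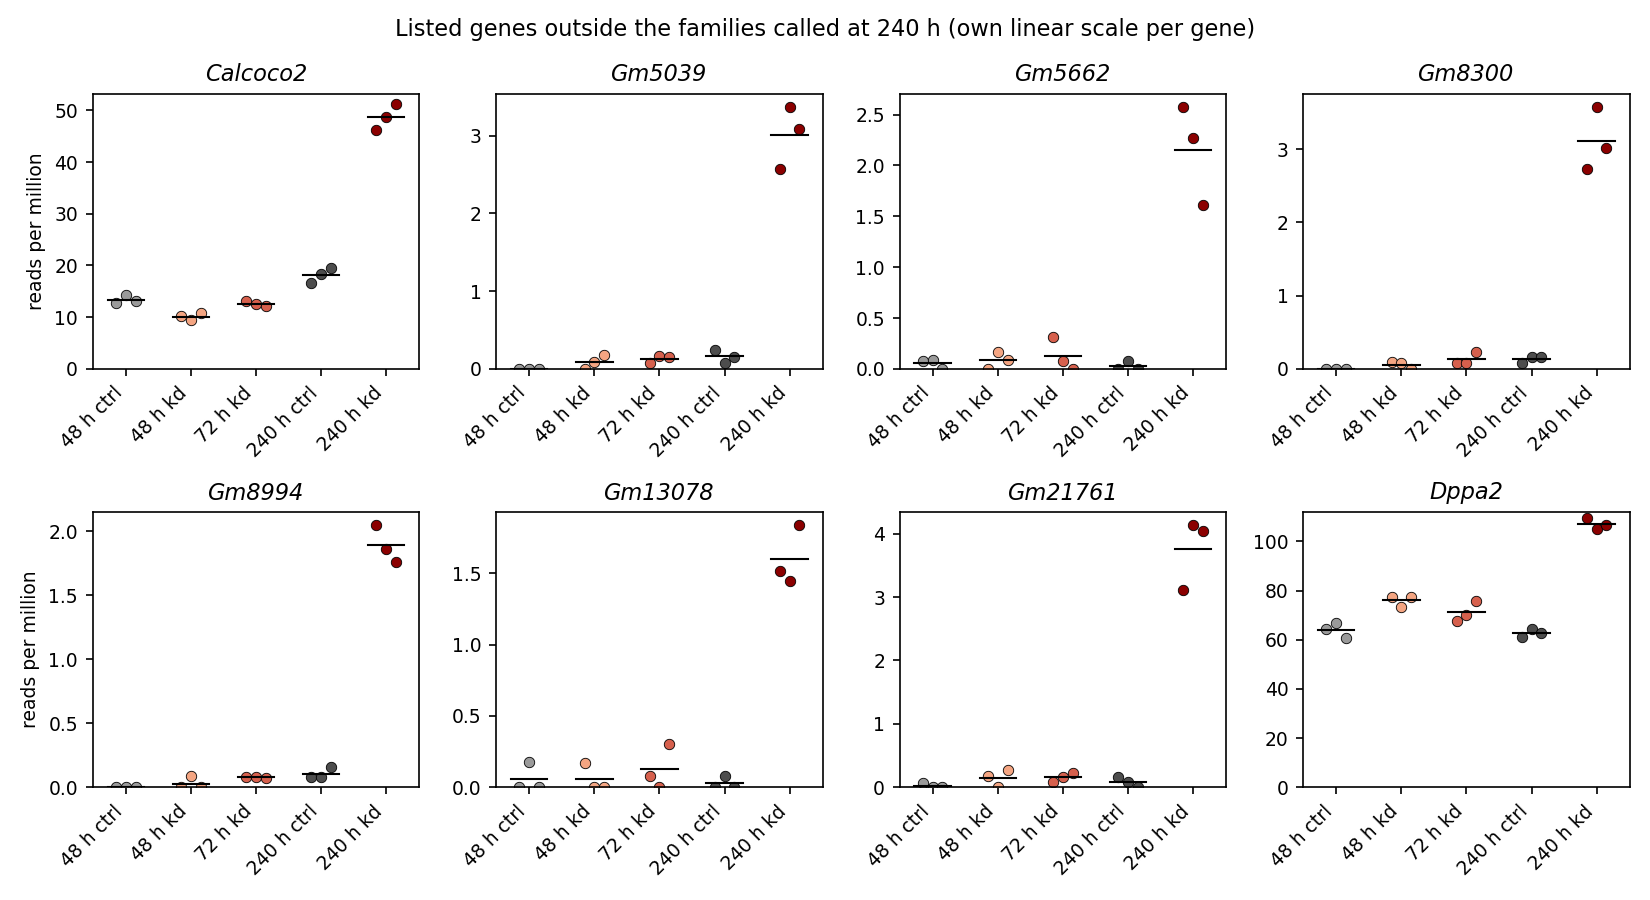
RPM (linear, own range per panel) in the 15 libraries of the 7 other 2-cell-like genes called at 240 h and of Dppa2; points are libraries and bars group means (n = 3). The 240 h kd libraries are the highest in each panel, and Dppa2 and Calcoco2 are the 2 of these genes with over 100 reads in each untreated library.

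The 10 genes outside the families whose level was most like that of Zscan4 over the 15 libraries, among 12573 genes averaging 50 or more reads, were Folr1 (Pearson's r 0.97), Stra8, Skida1, Nup62cl, 1700095A21Rik, Fndc3c1, Cgnl1, Clcn5, Cyp2b23 and Sfmbt2 (0.96). A single group, 240 h kd, set most of the range here too, so a gene raised mainly there has a high r. Genes with fewer reads were left out. Stra8, a meiotic entry gene of the germ line, had 21 to 32 reads in 240 h ctrl against 383 to 460 after 240 h of knockdown. Sfmbt2, a polycomb-related gene of the trophoblast, averaged 47.4 RPM in 240 h ctrl against 252 after 240 h of knockdown.

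Markers of other cell types changed as well, those of trophoblast already before 240 h. At 240 h, where 9.77% of all features were called higher and 17.7% in either direction, 4 of 6 tested trophoblast markers were called higher (Cdx2, Hand1, Tfap2c and Krt7) and 1 lower (Eomes). Cdx2, Hand1 and Krt7 passed the read minimum through the kd libraries, and without a minimum, where 11.3% of features were called in either direction, 4 of 8 were called higher and 1 lower. The summed level of the 8 listed was 114 to 118 RPM for kd and 70.8 to 76.7 for ctrl. That sum was 153 to 158 in 72 h kd, above both. In 48 h kd it was 53.3 to 58.1, below the 83.0 to 90.0 of 48 h ctrl. Elf5, a defining trophoblast gene, was at 0 in 2 of 3 libraries of either group and Hand1 had 40 to 56 reads after knockdown. Of 5 tested primitive endoderm markers, 3 were called higher (Gata6, Pdgfra and Dab2) and 1 lower (Sox7), and the sum of 7 was 20.4 to 21.9 against 14.6 to 15.8. The fibroblast markers Col1a1 and Col1a2 were called higher of 3 tested, Col1a2 having passed the minimum through the kd libraries, and the third, Thy1, had a log2 fold change of -0.50 (adjusted p = 0.0356, limma), short of the fold threshold. Without a minimum 4 of 7 were called higher. The list had sums of 19.6 to 23.2 against 7.97 to 9.09 RPM, while Postn, Lum and Dcn had 0 to 3 reads per library. The sum over the 9 stem cell markers was 4977 to 5067 RPM for kd and 5326 to 5790 for ctrl, with Esrrb and Zfp42 called lower. Their part in the family results was not tested.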

How the data were processed

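RNA-seq had been done in 15 libraries. Reads of 1 end were mapped to mm10 (GRCm38) by the authors with STAR 2.7.0c, counted per gene in R 4.0.3 and tested with DESeq2 1.30.0. What they deposited for each gene and library is an FPKM value, which refers to the whole gene including introns. The product of FPKM, gene span and a library total came out as whole reads, and those reads were analysed. Counting ignored strand, so overlapping genes share reads. Depth was 11074998 to 14515300 reads per library. Reads were summed over the copies of each family and scaled to 1000000 reads (RPM). Groups came from the sample labels.

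Differences were tested with limma 3.58.1 (R 4.3.3, trended prior) using log2(RPM + 0.1), a scale that understates changes of low genes, over all listed genes plus 1 sum per family, if the libraries compared averaged 10 or more reads. P-values were adjusted by Benjamini-Hochberg over all features tested. Each adjusted p-value given for a gene or family is from limma, and those for ratios between families are from exact permutation tests. The scripts were tested on simulated data. Sequences were aligned with edlib 1.3.9.post1. Gene types are from GENCODE M21.

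The members and gene lists were chosen with earlier results of these data known. Named copies are the up to 5 with most reads per family and those with a promoter window shown, with Pramef6, Pramef17, Pramef20 and Zscan4-ps2 named after their values were seen. Zscan4-ps1 and Usp17le-ps are named outside this rule. Listed genes are named when called in a comparison of kd with ctrl, likeness genes by the highest correlation, and the other listed genes and markers as examples chosen after their values were seen. Alternatives were pseudocounts of 1 and 0.01, no minimum or 50 reads, voom, median centring, quantile normalization, summed FPKM, sums without overlapping copies, 1 fit of 15 libraries, no trend, a replicate block, each library left out, and 240 h ctrl as control for 72 h. Ratios and non-overlap counts with a library left out, and family pairs without a minimum, were added after the data were seen. Same-numbered libraries did not deviate together (correlations of -0.192 to 0.173), so the numbers were not taken as pairs.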

Additional observations from a re-analysis of the deposited data

Results flagged for a closer look

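By the interaction term over 12 libraries, knockdown acted differently at 240 h than at 48 h on 2 families and 4 single genes, with an adjusted p-value under 0.05 in limma and a log2 difference beyond 0.58, beside 10.5% of all features called. The log2 fold change at 240 h minus that at 48 h was 4.92 for the Zscan4 family and 3.88 for the Usp17l family. For single copies it was 4.07 for Zscan4a, 3.81 for Zscan4d and 4.14 for Usp17le. For Pramef12 it was -0.603, from 0.06 at 48 h to -0.55 at 240 h, so that it went the other way from the Zscan4 and Usp17l copies. All but Pramef12 had few reads outside 240 h kd and passed the read minimum through those libraries. The Pramef family, at -0.49 (adjusted p = 0.00402, limma), was short of that size. Without a minimum, where 5.05% of features were called, 4 families were (Zscan4, Usp17l, Tdpoz and Zfp352), and the 3 Zscan4 and Usp17l copies were as well, with adjusted p-values of 0.000413 (Zscan4a), 0.000145 (Zscan4d) and 0.000293 (Usp17le) in limma.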

How the results depend on the processing

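With 2 families called at 240 h, 3 in 240 h kd against 72 h kd and 2 for the difference between 240 h and 48 h, the count depended mainly on the read minimum. Without a minimum it was 5, 6 and 4, and 2 rather than 0 at 72 h. A single fit of 15 libraries also called 2 at 72 h, and 1 in 72 h kd against 48 h kd. For the difference between times, a minimum of 50 reads and summed FPKM each left 1. Zscan4 and Usp17l were called at 240 h under all 18 alternatives in which they were fitted, with log2 fold changes of 4.10 to 6.38 and 2.80 to 4.76. Of 3 family pairs, chosen by the read minimum, 1 passed, against 0 of 21 without a minimum, 2 with a pseudocount of 1 and 2 without overlapping copies, and 0 to 2 with 1 library left out. None passed without 48 h ctrl replicate 1. Leaving out 48 h ctrl replicate 3, 48 h kd replicate 1 or 48 h kd replicate 2 gave 2. The Zscan4 to Usp17l difference at 240 h, 1.49, ranged from 0.70 to 1.89 with 1 library left out. The Pramef fold change, which was not called, was 0.05 at 48 h and ranged from -0.010 to 0.11 with 1 library left out, below 0 without 48 h kd replicate 1. In 240 h ctrl against 48 h ctrl it was 0.03 and ranged from -0.016 to 0.10, below 0 without 240 h ctrl replicate 3 or 48 h ctrl replicate 2 (-0.0082). Under summed FPKM, Pramef in 240 h kd against 72 h kd fell short of the fold threshold (-0.55). The cause was not tested.

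Features called over the whole table were 1486, 3597, 2948, 2075 and 4153 at 48 h, 72 h, 240 h, 72 h kd against 48 h kd and 240 h kd against 72 h kd. With a minimum of 50 reads they were 876, 2232, 1665, 1206 and 2531, and with summed FPKM 456, 1548, 1018, 857 and 1805. For the difference between times they were 1729, and 665 with summed FPKM. For 240 h ctrl against 48 h ctrl they were 221, 118 with a pseudocount of 1, 107 with the higher minimum, 54 with summed FPKM, 0 without a trend (limma, 3905 at an unadjusted p under 0.05), and 125 or 95 without 48 h ctrl replicate 2 or 3. The replicate block, on numbers that did not pair the samples, gave 333 there and changed no family's call, with 2 families called at 240 h and 3 in 240 h kd against 72 h kd. Few reads limit Tcstv, Tdpoz, Zfp352, Sp110 and every family but Pramef before 240 h.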
